A study of Mus musculus with 32 samples.

Results

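Metallothioneins and the genes that move zinc across membranes were followed in cholesterol-loaded mouse adipocytes. The 6 genes described are Mt1 and Mt2, which encode metallothioneins, Mtf1, which encodes the zinc-sensing transcription factor, Slc30a1, which encodes a zinc exporter, and Slc39a10 and Slc39a14, which encode zinc importers. They were picked by gene name from 56748 genes in the deposited count table, of which 16984 had enough reads to be tested, and all 6 were among those tested. The study silenced 2 genes with siRNA in primary white adipocytes made from murine subcutaneous fat and then loaded the cells with cholesterol. The question, as the series states it, was the part of Nfe2l1 and Atf3 in cholesterol homeostasis.

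Of the 8 groups, 4 received 400 µM cholesterol carried by methyl-β-cyclodextrin for 6 h. These were cells with siRNA against Nfe2l1 (siNfe2l1), against Atf3 (siAtf3), against both (double), and scramble siRNA. The other 4 groups had the same siRNAs and a control treatment, and the labels do not say whether that treatment held the carrier. The table heads its treated columns with the letter C, which was read as cholesterol. Each group had 4 libraries of poly(A) RNA, labelled as biological replicates of wild-type cells. The labels do not say whether they came from separate animals, so p-values measure the spread between these libraries.

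Metallothioneins are small cysteine-rich proteins that bind zinc and copper, and their genes are textbook targets of MTF1. MTF1 gains DNA binding when free zinc rises and acts through metal response elements (MREs), short promoter motifs. ZnT proteins of the Slc30a family move zinc out of the cytosol, and ZIP proteins of the Slc39a family move it in. In mouse, Slc30a1 is an MTF1 target as well, Slc39a10 is repressed by MTF1, and Slc39a14 is induced by IL-6 in liver. Nfe2l1 encodes a transcription factor of the endoplasmic reticulum membrane that activates proteasome genes, and Atf3 encodes a stress-induced factor of the bZIP family.

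The upstream windows of Mt1, Mt2 and Slc30a1 are printed because, of the 5 genes with a window, these 3 have the MRE core in it. The letters searched were TGCACNC and TGCGCNC on both strands, in the 250 bases before each annotated start, and matches are in capitals. Sequences are from RefSeq on GRCm38.p6, with 5 of the 6 genes in that table. Slc39a14 had no window there and was not searched. The Mt1 window is chr8:94178839-94179088, the Mt2 window chr8:94172368-94172617 and the Slc30a1 window chr1:191906531-191906780, all on the plus strand.
Mt1: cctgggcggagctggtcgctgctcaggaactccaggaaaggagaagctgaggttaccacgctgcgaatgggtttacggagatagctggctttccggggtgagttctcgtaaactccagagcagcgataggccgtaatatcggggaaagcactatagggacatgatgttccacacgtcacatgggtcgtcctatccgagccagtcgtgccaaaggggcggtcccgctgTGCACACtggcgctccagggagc
Mt2: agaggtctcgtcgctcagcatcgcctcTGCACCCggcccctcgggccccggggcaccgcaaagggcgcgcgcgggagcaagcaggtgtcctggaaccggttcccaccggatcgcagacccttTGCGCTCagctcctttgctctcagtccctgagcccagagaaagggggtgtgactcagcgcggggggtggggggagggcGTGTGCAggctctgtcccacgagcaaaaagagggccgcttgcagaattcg
Slc30a1: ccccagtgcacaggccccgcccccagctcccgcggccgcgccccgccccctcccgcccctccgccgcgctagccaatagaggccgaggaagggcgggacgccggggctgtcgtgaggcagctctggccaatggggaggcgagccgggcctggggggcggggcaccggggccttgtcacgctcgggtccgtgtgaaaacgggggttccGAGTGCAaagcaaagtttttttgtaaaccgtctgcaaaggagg

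Mt2 had 3 MRE core matches, Mt1 had 1 and Slc30a1 had 1. Over all 32851 windows of this length, 21.4% held at least 1 match, 5.17% at least 2 and 1.26% at least 3. Mtf1 and both windows of Slc39a10 had 0 matches, which says only that these letters are not in those windows. With the 50 bases after the start included, the counts were 4 for Mt2, 3 for Mt1 and 2 for Slc30a1. Of all windows 0.517% had at least 4, 1.97% at least 3 and 7.11% at least 2. Of these matches 2 in Mt1, 1 in Mt2 and 1 in Slc30a1 lay wholly after the annotated start. Bases further on were not searched, so the counts describe these windows and do not rank the promoters. The core of the antioxidant response element, TGACNNNGC, had 1 match in Mt2, where it overlaps an AP-1 match (TGANTCA), and 1 in Slc30a1, against 10.2% of all windows for the first motif and 6.75% for AP-1. The CRE motif TGACGTCA had 0 matches in the windows of the 5 genes and was in 1.55% of all windows.

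Library totals ran between 23457384 and 33828418 counts. The siRNAs left 15.2% of Nfe2l1 RNA in siNfe2l1 control and 14.7% in siNfe2l1 cholesterol cells, relative to scramble cells of the same treatment. The double cells kept 23.4% with control treatment and 19.3% with cholesterol. For Atf3 the share left was 37.8% in siAtf3 control, 10.3% in siAtf3 cholesterol, 57.3% in double control and 12.8% in double cholesterol cells. All 12 adipocyte markers, such as Adipoq and Plin1, were above 0 in every group. Markers of other cells moved with treatment: the summed level of 10 fibroblast and precursor markers was 7225 to 8141 CPM (reads of a gene scaled to a common library size) in scramble cholesterol libraries, against 24233 to 25551 CPM in scramble control libraries. In that comparison 8 of 9 tested fibroblast and precursor markers, 9 of 10 macrophage markers and 8 of 8 endothelial markers were called lower. Of 12 adipocyte markers 10 were called higher and 1 lower, and of 8 smooth muscle and pericyte markers 3 higher and 4 lower. Of all tested genes 65.2% were called there, 32.9% higher and 32.3% lower. The summed macrophage markers were 125 to 152 CPM in scramble cholesterol libraries, against 208 to 245 CPM in scramble control libraries. They also moved with the siRNAs, and those values stand beside the silencing results. No marker of any list was at 0 in every library of a group, and the part of these markers in the cholesterol results was not tested. In bulk RNA, fewer cells of a type and less RNA per cell cannot be told apart. In siNfe2l1 cholesterol cells, libraries 3 and 4 had lower values of the first principal component (27.7 and 24.0) than libraries 1 and 2 (40.5 and 34.3). The main differences that involve this group are also given without libraries 3 and 4. The values ran in steps, and by chi-square per degree of freedom library 2 was nearer library 3 (10.1) than library 1 (12.8). In scramble cholesterol cells library 1 stood apart by this measure, at 27.5 to 32.9 from the others, which were at 4.44 to 10.1 among themselves. It had the lowest Slc39a10 and Slc39a14 levels of its group (12.7 and 76.3 CPM). In siAtf3 cholesterol cells library 1 stood apart as well, at up to 16.1 from the others. Those were at 3.22 to 4.05 among themselves, each below any of their values against library 1. That library also had the lowest Slc39a10 and Slc39a14 levels of its group (16.8 and 70.8 CPM). Fits without either library 1 are among those with 1 library left out.

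**Figure D1:**
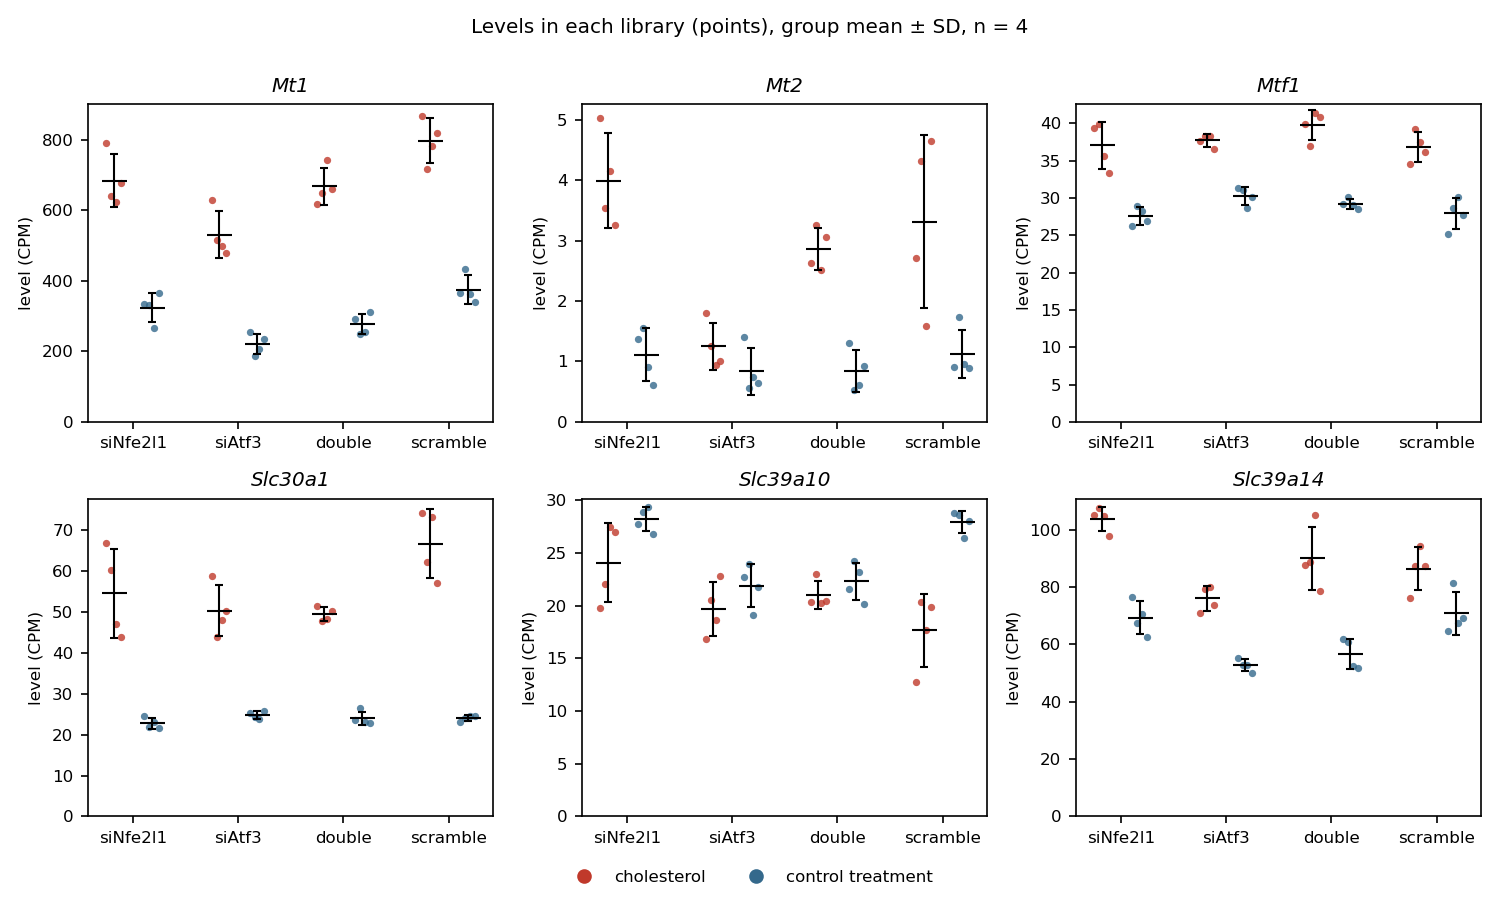
Level of each of the 6 genes in every library, in CPM on scaled library sizes, for the 4 siRNAs (horizontal axis) with cholesterol (red) and control treatment (blue); black marks are the mean and SD of 4 libraries, and the vertical axes start at 0 and differ between genes. Mt1, Mtf1 and Slc30a1 separate by treatment in all 4 siRNA groups. Slc39a10 of scramble cells is the only case in which every cholesterol library lies below every control library. Of all tested genes, 50.1% (siNfe2l1) to 57.4% (scramble) had no overlap between treatments within a siRNA group.

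Cholesterol raised both metallothionein genes, Mtf1, Slc30a1 and Slc39a14 in scramble cells, and lowered Slc39a10. Adjusted p-values are from edgeR's quasi-likelihood test over all 16984 genes, and a gene was called at an adjusted p under 0.05. In scramble cells all 6 genes were called, 5 higher and 1 lower, where 65.2% of all tested genes were called, 32.9% higher and 32.3% lower. In siNfe2l1 cells 5 were called higher, where 60.1% of all genes were called in either direction and 31.1% were called higher. In double cells 5 were higher, against 58.7% called and 29.8% higher. In siAtf3 cells 4 were higher, against 58.1% called and 29.4% higher. Most tested genes were thus called in every siRNA group, and a call by itself sets these genes little apart. Cholesterol and control libraries did not overlap in CPM for 50.1% of all tested genes in siNfe2l1, 54.8% in siAtf3, 56.4% in double and 57.4% in scramble cells, which is the base for each statement on overlap below.

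**Figure D2:**
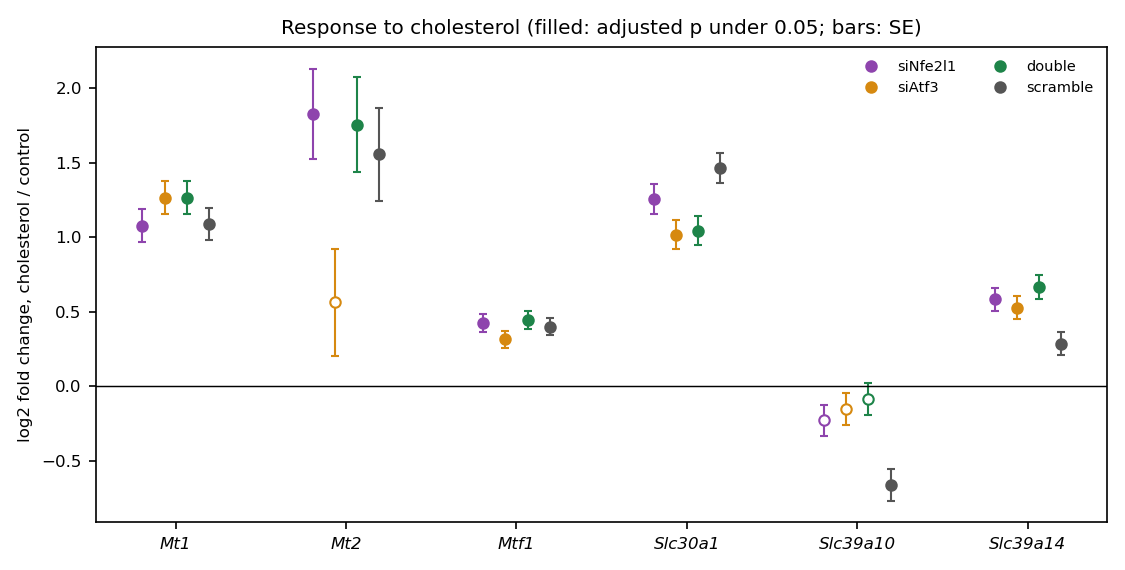
Log2 fold change of cholesterol over control treatment for each gene (vertical axis) in siNfe2l1, siAtf3, double and scramble cells; bars are SE, and filled points have an adjusted p under 0.05. The metallothioneins, Mtf1, Slc30a1 and Slc39a14 lie above 0, and Slc39a10 reaches its lowest value, -0.66, in scramble cells.

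Mt1, which encodes metallothionein-1, had the highest level of the 6 genes by the reads assigned to each, also per kilobase of annotated gene. A limit on the Mt2 count is given below. It is ENSMUSG00000031765, at chr8:94905710-94906955 on the plus strand (GRCm39). Scramble cholesterol libraries had 867, 716, 783 and 820 CPM, against 364, 434, 362 and 340 CPM in scramble control libraries. The groups did not overlap, and the level was 2.12-fold higher (1.09 ± 0.11 on the log2 scale, SE, adjusted p = 1.02e-09). siNfe2l1 cholesterol libraries had 792, 642, 623 and 678 CPM, against 334, 330, 267 and 364 CPM in siNfe2l1 control libraries (1.08 ± 0.11, adjusted p = 1.47e-09). siAtf3 cholesterol libraries had 628, 516, 498 and 479 CPM, against 254, 187, 208 and 234 CPM in siAtf3 control libraries (1.27 ± 0.11, adjusted p = 8.18e-11). In both, every cholesterol library was above every control library. Double cholesterol libraries had 619, 649, 741 and 661 CPM, against 293, 251, 256 and 312 CPM in double control libraries (1.26 ± 0.11, adjusted p = 7.53e-11). No difference in the size of this rise from scramble cells was called for any silenced group (edgeR adjusted p between 0.482 and 0.988).

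Mt2, the neighbouring gene (ENSMUSG00000031762), was counted at far lower depth, with 14 to 123 reads a library and 1580 in all, against 400208 for Mt1. Per kilobase of the annotated gene, Mt2 averaged 5.64 CPM and Mt1 639 CPM in scramble cholesterol cells. The annotated length was 1246 bases for Mt1, its whole span, and 588 bases for Mt2, less than its span. Mt2 spans chr8:94899292-94900196, plus strand, and Gm45774, a long non-coding RNA gene of the minus strand, covers 749 of its 905 bases and leaves 156. Gm45774 itself had 0 to 22 reads a library. Strand and overlap settings of the counting are not given in the sources used here, and whether reads in the shared bases were left out of the Mt2 count was not tested. Mt2 levels below are therefore those of the reads the authors assigned to it.

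**Figure D3:**
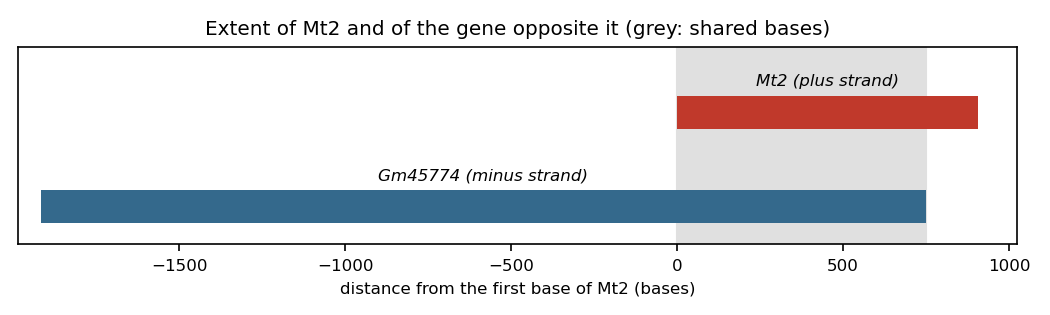
Extent of Mt2 (plus strand, above) and Gm45774 (minus strand, below) in bases from the first base of Mt2, drawn to scale; the grey band marks the 749 shared bases. 156 bases of Mt2 lie outside it.

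Mt2 rose with cholesterol in 3 of the 4 siRNA groups. Scramble cholesterol libraries had 2.72, 4.32, 1.58 and 4.65 CPM, against 0.912, 1.73, 0.964 and 0.900 CPM in scramble control libraries. The lowest cholesterol library was below the highest control library, and the difference was 1.56 ± 0.31 (log2, adjusted p = 5.93e-05). siNfe2l1 cholesterol libraries had 5.03, 3.54, 4.14 and 3.26 CPM, against 1.38, 1.56, 0.911 and 0.607 CPM in siNfe2l1 control libraries (1.83 ± 0.30, adjusted p = 4.63e-06). Double cholesterol libraries had 2.62, 3.25, 2.52 and 3.06 CPM, against 1.30, 0.523, 0.614 and 0.920 CPM in double control libraries (1.76 ± 0.32, adjusted p = 1.91e-05). In these 2 cell groups the cholesterol and control libraries did not overlap. siAtf3 cholesterol libraries had 1.80, 1.26, 0.946 and 1.00 CPM, against 1.40, 0.560, 0.738 and 0.638 CPM in siAtf3 control libraries, an overlap, with a difference of 0.56 ± 0.36 that was not called (adjusted p = 0.185). Without library 1 of siAtf3 control it was 0.96 and called (adjusted p = 0.0367). The difference between the responses of siAtf3 and scramble cells was -0.99 ± 0.48 and was not called (adjusted p = 0.169).

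Mtf1, the zinc sensor itself (ENSMUSG00000028890, chr4:124695897-124743593, plus strand), was raised by a smaller factor. Its level was 33.3 to 41.4 CPM over the 16 cholesterol libraries and 25.2 to 31.4 CPM over the 16 control libraries. The cholesterol and control libraries did not overlap within any siRNA group. For the ranges over all 16 libraries of each treatment the share of all genes without overlap was not counted. The log2 differences were 0.43 ± 0.06 in siNfe2l1, 0.31 ± 0.06 in siAtf3, 0.45 ± 0.06 in double and 0.40 ± 0.06 in scramble cells, with edgeR adjusted p-values of 7.18e-08, 1.38e-05, 2.4e-08 and 2.31e-07 in that order. Mtf1 shares 721 bases with 1110065P20Rik on the other strand, which had 329 to 615 reads a library.

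Slc30a1 (ENSMUSG00000037434, chr1:191638879-191645359, plus strand), whose product exports zinc at the plasma membrane, showed the largest response of the transporters among the 6. Scramble cholesterol libraries had 74.1, 62.3, 73.4 and 57.1 CPM, against 23.2, 24.2, 24.6 and 24.5 CPM in scramble control libraries (2.76-fold, 1.47 ± 0.10, adjusted p = 4.33e-14). siNfe2l1 cholesterol libraries had 67.0, 60.4, 47.2 and 44.0 CPM, against 24.5, 22.0, 23.2 and 21.5 CPM in siNfe2l1 control libraries (1.26 ± 0.10, adjusted p = 2.11e-12). Libraries 3 and 4 of siNfe2l1 cholesterol were the low ones of their group, and without them the difference was 1.48 (adjusted p = 1.15e-16). siAtf3 cholesterol libraries had 58.8, 44.0, 48.2 and 50.2 CPM, against 25.3, 24.4, 23.8 and 25.8 CPM in siAtf3 control libraries (1.02 ± 0.10, adjusted p = 2.23e-10). Double cholesterol libraries had 51.5, 47.8, 48.3 and 50.3 CPM, against 23.6, 26.4, 23.0 and 22.9 CPM in double control libraries (1.04 ± 0.10, adjusted p = 1.24e-10). The 16 control libraries stayed within 21.5 to 26.4 CPM whatever the siRNA, and no cholesterol library was below 44.0 CPM. How many of all genes were so far apart over these libraries was not counted. 1700034H15Rik, on the other strand, shares 761 bases with Slc30a1 and had 2 to 17 reads a library.

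The importers moved in opposite directions. Slc39a14 (ENSMUSG00000022094, chr14:70540918-70588874, minus strand), whose product also takes up iron and manganese, rose with every siRNA. Scramble cholesterol libraries had 76.3, 87.2, 94.4 and 87.3 CPM, against 64.7, 81.4, 67.5 and 69.3 CPM in scramble control libraries. The ranges overlapped, and the difference of 0.29 ± 0.08 (adjusted p = 0.00172) was 0.17 and not called (adjusted p = 0.0687) with scaling by library totals. The rise was 0.58 ± 0.08 in siNfe2l1 cells (104 ± 4.13 CPM with cholesterol and 69.3 ± 5.82 CPM with control, SD, n = 4 each), 0.53 ± 0.08 in siAtf3 cells (76.0 ± 4.46 CPM with cholesterol and 52.7 ± 2.11 CPM with control) and 0.67 ± 0.08 in double cells (90.0 ± 11.0 CPM with cholesterol and 56.7 ± 5.31 CPM with control), with edgeR adjusted p-values of 6.66e-08, 6.09e-07 and 5.18e-09. In these 3 groups no cholesterol library overlapped the controls.

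Slc39a10 (ENSMUSG00000025986, chr1:46846704-46932012, minus strand), a plasma membrane importer, fell in scramble cells. Scramble cholesterol libraries had 12.7, 20.3, 17.6 and 19.9 CPM, against 28.8, 28.6, 26.4 and 28.0 CPM in scramble control libraries (-0.66 ± 0.11, adjusted p = 2.86e-06). Every cholesterol library was below every control library. In the silenced cells the differences were -0.23 ± 0.10 for siNfe2l1 (24.1 ± 3.77 CPM with cholesterol and 28.2 ± 1.13 CPM with control), -0.15 ± 0.11 for siAtf3 (19.7 ± 2.56 CPM with cholesterol and 21.9 ± 2.04 CPM with control) and -0.08 ± 0.11 for double cells (21.0 ± 1.33 CPM with cholesterol and 22.3 ± 1.78 CPM with control). None was called (edgeR adjusted p = 0.0615, 0.235 and 0.517), and ranges overlapped in all 3. The siNfe2l1 value was close to the threshold, and 10 of 16 alternatives called it, DESeq2 and limma-voom among them (adjusted p = 0.036 and 0.0429). In siNfe2l1 cells libraries 3 and 4 with cholesterol had 27.4 and 27.0 CPM and libraries 1 and 2 had 19.8 and 22.1 CPM. Without libraries 3 and 4 the difference was -0.43 (adjusted p = 0.00232), and it was also called with either of them, or library 4 of siNfe2l1 control, left out (-0.32, -0.31 and -0.28). The siNfe2l1 rises of the other genes without libraries 3 and 4 were 1.15 for Mt1, 1.93 for Mt2, 0.52 for Mtf1 and 0.62 for Slc39a14, each still called. The genes Gm28151 and Gm37393, on the same strand, lie inside the span of Slc39a10, with 4 to 28 reads a library for the first and 0 for the second.

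Silencing was compared with scramble under each treatment. All these comparisons with the same treatment share the scramble libraries, so their values are set side by side and not counted as separate support. With control treatment, 0 of the 6 genes were called by edgeR in siNfe2l1 cells, with adjusted p between 0.313 and 0.993, where 5.99% of all tested genes were called. At an unadjusted p under 0.05 the count was 0 as well, and DESeq2 and limma-voom called 0. The differences were -0.21 ± 0.11 for Mt1, -0.01 ± 0.36 for Mt2, -0.02 ± 0.06 for Mtf1, -0.08 ± 0.10 for Slc30a1, 0.01 ± 0.10 for Slc39a10 and -0.03 ± 0.08 for Slc39a14. In siAtf3 control cells 3 genes were called lower, where 36.3% of all genes were called and 18.2% were lower. In double control cells the same 3 genes, Mt1, Slc39a10 and Slc39a14, were lower than in scramble, where 27.2% were called and 14.3% were lower. Against siNfe2l1 control cells, 2 genes were lower in double control cells, Slc39a10 and Slc39a14, where 26.8% were called and 14.5% were lower. Mt2, Mtf1 and Slc30a1 were not called in these 3 comparisons. In siAtf3 control cells they differed from scramble by -0.43 ± 0.37, 0.12 ± 0.06 and 0.04 ± 0.10, in the order named, and in double control cells by -0.41 ± 0.37, 0.06 ± 0.06 and -0.01 ± 0.10. Double differed from siNfe2l1 control cells by -0.40 ± 0.36, 0.08 ± 0.06 and 0.07 ± 0.10 in these genes, and by -0.22 ± 0.11 in Mt1 (adjusted p = 0.139), which was called without library 3 of siNfe2l1 control (-0.31). Scaling by library totals called Mtf1 higher in all 3 (0.26, 0.16 and 0.18).

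In control cells Mt1 averaged 221 ± 29.4 CPM with siAtf3 and 278 ± 29.6 CPM with both siRNAs, against 375 ± 40.7 CPM with scramble (SD, n = 4 each). No library of either silenced group reached the scramble range, as for 41.3% of all tested genes with siAtf3 and 33.7% in double cells with no overlap in either direction. The differences were -0.76 ± 0.11 for siAtf3 (adjusted p = 2.19e-06) and -0.43 ± 0.11 for double cells (adjusted p = 0.00318). Slc39a14 averaged 52.7 ± 2.11 CPM in siAtf3 control, 56.7 ± 5.31 CPM in double control and 70.7 ± 7.38 CPM in scramble control cells. It was lower by edgeR at -0.42 ± 0.08 in siAtf3 cells (adjusted p = 5.25e-05) and at -0.32 ± 0.08 in double cells (adjusted p = 0.00212), without overlap. Slc39a10 was lower in both as well, at -0.35 ± 0.11 (adjusted p = 0.00808) and -0.33 ± 0.10 (adjusted p = 0.0184). Scaling by library totals ended both calls (-0.22 and -0.23, adjusted p = 0.131 and 0.133), and so did leaving out library 4 of double control for double cells (-0.28, adjusted p = 0.0799). The double call was also lost with no filter on low counts (-0.33, adjusted p = 0.0624). Against siNfe2l1 control, the double cells' difference in Slc39a10 was -0.34 ± 0.10 (adjusted p = 0.0145), and it was not called without that library (-0.30, adjusted p = 0.0578) or with no filter (-0.34, adjusted p = 0.0535). For Slc39a14 it was -0.29 ± 0.08 (adjusted p = 0.0054). In both genes the 2 groups did not overlap, as for 28.5% of all genes. Scaling by library totals ended both calls (-0.25 and -0.20, adjusted p = 0.102 and 0.0592). Markers of several cell types moved with these results. The summed level of 12 adipocyte markers was 14705 to 15887 CPM in siAtf3 control libraries and 16304 to 16985 CPM in double control libraries, against 19226 to 19836 CPM in scramble control libraries, with 7 markers lower in siAtf3 and 4 in double cells. Fibroblast and precursor markers summed to 16860 to 17575 CPM in siAtf3 control and 18797 to 19737 CPM in double control libraries, against 24233 to 25551 CPM in scramble control libraries (6 and 5 of 9 tested lower). Macrophage markers summed to 289 to 378 CPM in siAtf3 control and 469 to 511 CPM in double control libraries, against 208 to 245 CPM in scramble control libraries (5 of 10 higher and 1 lower in siAtf3, 9 of 10 higher in double cells). Endothelial markers summed to 547 to 567 CPM in siAtf3 control and 596 to 615 CPM in double control libraries, against 668 to 723 CPM in scramble control libraries (4 and 2 of 8 lower). Smooth muscle and pericyte markers summed to 684 to 760 CPM in siAtf3 control and 713 to 765 CPM in double control libraries, against 915 to 949 CPM in scramble control libraries (4 of 8 lower in both). In siNfe2l1 control libraries, to which double cells were also compared, the sums were 17216 to 19364 CPM for adipocyte, 26873 to 29367 CPM for fibroblast and precursor and 279 to 423 CPM for macrophage markers. Against scramble control 9 of 10 macrophage markers were higher there, where 5.99% of all genes were called. Of the others, 2 of 12 adipocyte markers were higher and 1 lower. For fibroblast and precursor markers 2 of 9 were higher, for endothelial 1 of 8, and for smooth muscle and pericyte 0 of 8 were called. The part of these markers in the results was not tested.

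**Figure D4:**
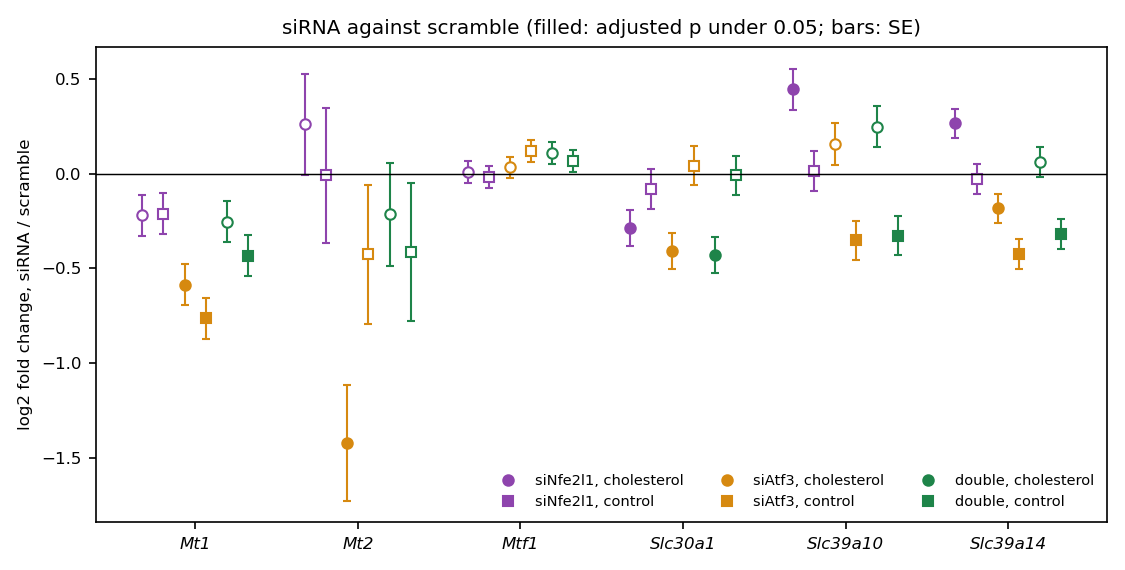
Log2 fold change of each siRNA over scramble with cholesterol (circles) and with control treatment (squares) for siNfe2l1, siAtf3 and both siRNAs; bars are SE and filled symbols have an adjusted p under 0.05. Mt1 is below 0 with siAtf3 under both treatments, and Mt2 is lowest, at -1.42, with siAtf3 and cholesterol.

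With cholesterol, 4 genes were lower in siAtf3 than in scramble cells, where 50.4% of all genes were called and 27.4% were lower. Mt1 averaged 530 ± 66.9 CPM in siAtf3 cholesterol cells, against 796 ± 63.6 CPM in scramble cholesterol cells, with no overlap, as for 40.9% of all genes (-0.59 ± 0.11, adjusted p = 4.8e-05). Mt2 averaged 1.25 ± 0.389 CPM in siAtf3 cholesterol cells, against 3.32 ± 1.43 CPM in scramble cholesterol cells (-1.42 ± 0.31, adjusted p = 0.00024), with library ranges that overlapped. Slc30a1 averaged 50.3 ± 6.25 CPM in siAtf3 cholesterol cells, against 66.7 ± 8.40 CPM in scramble cholesterol cells (-0.41 ± 0.10, adjusted p = 0.000605), also with overlap. Slc39a14 was close to the threshold: its difference of -0.18 ± 0.08 (adjusted p = 0.0485) was 0.0024 with scaling by library totals (adjusted p = 0.984). It was not called without any 1 of 7 of the 8 libraries compared, the exception being library 1 of scramble cholesterol (-0.19 to -0.12). Nor was it called with no filter (adjusted p = 0.102), with limma-voom (adjusted p = 0.051) or in the groups compared alone (adjusted p = 0.068). Mtf1 differed by 0.03 ± 0.06 (adjusted p = 0.671) and Slc39a10 by 0.16 ± 0.11 (adjusted p = 0.252), and with library totals both were called (0.22 and 0.34). The summed adipocyte markers were 18984 to 21200 CPM in siAtf3 cholesterol libraries, against 23690 to 25240 CPM in scramble cholesterol libraries, with 9 of 12 lower. Fibroblast and precursor markers summed to 3889 to 4282 CPM in siAtf3 cholesterol libraries, against 7225 to 8141 CPM in scramble cholesterol libraries, with 7 of 9 tested lower. For endothelial markers it was 259 to 296 CPM in siAtf3 cholesterol libraries, against 363 to 457 CPM in scramble cholesterol libraries (6 of 8 lower). Smooth muscle and pericyte markers summed to 315 to 333 CPM in siAtf3 cholesterol libraries, against 450 to 498 CPM in scramble cholesterol libraries (4 of 8 lower). Macrophage markers were at 137 to 172 CPM in siAtf3 cholesterol libraries, against 125 to 152 CPM in scramble cholesterol libraries (1 higher and 3 lower of 10). The part of these markers in the results was not tested.

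In double cholesterol cells 1 gene was called against scramble, where 44.7% of all genes were called and 23.9% were lower. Slc30a1 averaged 49.5 ± 1.69 CPM in double cholesterol cells, against 66.7 ± 8.40 CPM in scramble cholesterol cells, with no overlap, as for 37.8% of all genes (-0.43 ± 0.10, adjusted p = 0.00042). Mt1 averaged 668 ± 52.4 CPM in double cholesterol cells, and its difference from scramble of -0.25 ± 0.11 was not called (adjusted p = 0.0554), though 6 of 15 alternatives called it, among them leaving out library 2 of scramble cholesterol (-0.29) or library 3 of double cholesterol (-0.30). Slc39a10 was not called either (0.25 ± 0.11, adjusted p = 0.0646), and 4 of 15 alternatives called it, namely library totals (0.40), the replicate block (0.25) and leaving out library 2 or 4 of scramble cholesterol (0.33 and 0.32). Mtf1 differed by 0.11 ± 0.06 (adjusted p = 0.121) and was called in 3 of 15 alternatives, with library totals (0.26) and without library 2 of scramble cholesterol or library 2 of double cholesterol (0.15 each). Mt2 differed by -0.22 ± 0.27 (adjusted p = 0.551) and Slc39a14 by 0.06 ± 0.08 (adjusted p = 0.557), and Slc39a14 was called with library totals (0.21). In double cholesterol libraries the marker sums were 19303 to 20637 CPM for adipocyte, 4602 to 5384 CPM for fibroblast and precursor, 209 to 232 CPM for macrophage and 298 to 348 CPM for endothelial markers, to be set against the scramble cholesterol values above. Of these markers 8 of 12, 7 of 9 and 4 of 8 were lower for the adipocyte, fibroblast and endothelial lists, and 5 of 10 macrophage markers were higher. Smooth muscle and pericyte markers summed to 320 to 343 CPM in double cholesterol libraries, against 450 to 498 CPM in scramble cholesterol libraries. The part of all these markers in the result was not tested.

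Against siNfe2l1 cholesterol cells, 1 gene was called in double cholesterol cells, where 36.6% of all genes were called and 20.9% were lower: Slc39a14 (-0.21 ± 0.08, adjusted p = 0.0345). That call was lost without any 1 of 7 of the 8 libraries, the exception being library 3 of double cholesterol (-0.21 to -0.13). It was also lost with library totals (-0.10, adjusted p = 0.328), with no filter (-0.17, adjusted p = 0.109) and in the groups compared alone (-0.19, adjusted p = 0.0752). Without libraries 3 and 4 of siNfe2l1 cholesterol the called gene was another: Slc39a14 was at -0.24 and not called (adjusted p = 0.0512), and Slc30a1, which with all libraries was at -0.14 ± 0.10 and not called (adjusted p = 0.258), was lower at -0.36 (adjusted p = 0.000909). Mt1 differed by -0.03 ± 0.11, Mt2 by -0.48 ± 0.27, Mtf1 by 0.10 ± 0.06 and Slc39a10 by -0.20 ± 0.11, and none was called (edgeR adjusted p = 0.838, 0.17, 0.167 and 0.152). Mt2 was called in the groups compared alone (-0.46), and Mtf1 with library totals (0.21) and without library 2 of siNfe2l1 cholesterol or library 2 of double cholesterol (0.16 and 0.15). Without libraries 3 and 4 of siNfe2l1 cholesterol the Slc39a10 value was 0.01. Fibroblast and precursor markers summed to 4602 to 5384 CPM in double cholesterol libraries, against 9024 to 9642 CPM in siNfe2l1 cholesterol libraries (8 of 9 tested lower). Adipocyte markers summed to 19303 to 20637 CPM in double cholesterol libraries, against 21941 to 22360 CPM in siNfe2l1 cholesterol libraries (1 higher and 8 lower of 12). Macrophage markers summed to 209 to 232 CPM in double cholesterol libraries, against 230 to 273 CPM in siNfe2l1 cholesterol libraries (8 of 10 lower). For endothelial markers it was 298 to 348 CPM in double cholesterol libraries, against 422 to 521 CPM in siNfe2l1 cholesterol libraries (7 of 8 lower). Smooth muscle and pericyte markers summed to 320 to 343 CPM in double cholesterol libraries, against 401 to 466 CPM in siNfe2l1 cholesterol libraries (2 higher and 4 lower of 8). The part of these markers in the result was not tested.

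In siNfe2l1 cholesterol cells 3 genes were called against scramble, where 19.9% of all genes were called, 11.3% higher and 8.59% lower. Slc39a14 was higher in every siNfe2l1 cholesterol library (105, 108, 105 and 97.9 CPM) than in any scramble cholesterol library (76.3, 87.2, 94.4 and 87.3 CPM), with a difference of 0.27 ± 0.08 (adjusted p = 0.0138), where 12.5% of all genes had no overlap. Slc39a10 was higher at 0.45 ± 0.11 (adjusted p = 0.00388) and Slc30a1 lower at -0.29 ± 0.09 (adjusted p = 0.0303), both with overlap. Without libraries 3 and 4 of siNfe2l1 cholesterol none of the 3 was called: Slc39a14 was 0.30 (adjusted p = 0.0559), Slc39a10 was 0.24 (adjusted p = 0.268) and Slc30a1 was -0.07 (adjusted p = 0.731). In a fit of only the groups compared none was called either. The Slc30a1 call was also lost without library 1 or 3 of scramble cholesterol or library 3 or 4 of siNfe2l1 cholesterol (-0.23, -0.25, -0.24 and -0.21). The Slc39a14 call was lost without library 1 of scramble cholesterol or library 2 or 3 of siNfe2l1 cholesterol (0.21, 0.24 and 0.25). Mt1 differed by -0.22 ± 0.11 (adjusted p = 0.155) and was called without library 1 of siNfe2l1 cholesterol (-0.31). Mt2 differed by 0.26 ± 0.27 (adjusted p = 0.536) and Mtf1 by 0.01 ± 0.06 (adjusted p = 0.949). Macrophage markers summed to 230 to 273 CPM in siNfe2l1 cholesterol libraries, against 125 to 152 CPM in scramble cholesterol libraries, and 10 of 10 were higher. Fibroblast and precursor markers summed to 9024 to 9642 CPM in siNfe2l1 cholesterol libraries, against 7225 to 8141 CPM in scramble cholesterol libraries (4 of 9 tested higher). For endothelial markers it was 422 to 521 CPM in siNfe2l1 cholesterol libraries, against 363 to 457 CPM in scramble cholesterol libraries (6 of 8 higher). Adipocyte markers summed to 21941 to 22360 CPM in siNfe2l1 cholesterol libraries, against 23690 to 25240 CPM in scramble cholesterol libraries (1 higher and 2 lower of 12). Smooth muscle and pericyte markers summed to 401 to 466 CPM in siNfe2l1 cholesterol libraries, against 450 to 498 CPM in scramble cholesterol libraries. The part of these markers in the result was not tested.

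Whether the cholesterol response itself differed between siRNA groups was tested with interaction terms, that is, the difference between 2 log2 responses. For siNfe2l1 against scramble 0 of the 6 genes were called by edgeR (adjusted p between 0.165 and 0.988), where 0.247% of all genes were called. At an unadjusted p under 0.05 there were 2, Slc39a10 and Slc39a14, and DESeq2 and limma-voom called 0. For siAtf3 against scramble 2 were called, where 15.3% of all genes were, and for double against scramble 3 were called, where 13.7% were. The rise of Slc30a1 was smaller with siAtf3 (-0.45 ± 0.14, adjusted p = 0.028) and in double cells (-0.42 ± 0.14, adjusted p = 0.0419). These 2 calls stand close to the threshold: leaving out 1 library ended the first for 11 of 16 libraries (lost for all but library 3 of scramble control, library 3 of siAtf3 control, libraries 2 and 4 of scramble cholesterol and library 1 of siAtf3 cholesterol), with differences of -0.43 to -0.36 where it was lost. It ended the second for 14 of 16 (all but libraries 2 and 4 of scramble cholesterol), with differences of -0.44 to -0.36 where it was lost. With no filter both calls were lost (-0.42 and -0.41, adjusted p = 0.084 and 0.0946), and limma-voom did not call the second (-0.41, adjusted p = 0.0611).

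The fall of Slc39a10 seen in scramble cells was smaller in siAtf3 cells by 0.51 ± 0.15 (adjusted p = 0.0219) and in double cells by 0.58 ± 0.15 (adjusted p = 0.0115). The siAtf3 call was lost without library 4 of siAtf3 cholesterol (0.46, adjusted p = 0.0507) and with no filter (0.54, adjusted p = 0.0501). The rise of Slc39a14 was larger in double cells by 0.38 ± 0.11 (adjusted p = 0.0195), a call lost without library 2 of scramble control, library 1 of scramble cholesterol or library 3 of double cholesterol (0.32, 0.33 and 0.31), and in the groups compared alone (0.38, adjusted p = 0.0507). The other differences in response were not called. With siAtf3 they were 0.18 ± 0.15 for Mt1, -0.09 ± 0.08 for Mtf1 and 0.24 ± 0.11 for Slc39a14, beside the Mt2 value above. In double cells they were 0.18 ± 0.15 for Mt1, 0.20 ± 0.45 for Mt2 and 0.04 ± 0.08 for Mtf1. With siNfe2l1 they were -0.01 ± 0.15 for Mt1, 0.27 ± 0.45 for Mt2, 0.03 ± 0.08 for Mtf1, -0.21 ± 0.14 for Slc30a1, 0.43 ± 0.15 for Slc39a10 and 0.30 ± 0.11 for Slc39a14. Without libraries 3 and 4 of siNfe2l1 cholesterol the Slc30a1 and Slc39a10 values were 0.01 and 0.23, and without library 1 of that group Slc39a10 was called (0.50, adjusted p = 0.032). In siAtf3 and double cells the control levels of Slc39a10 and Slc39a14 were lower than in scramble cells, as given above. Markers of other cell types had called differences in response as well: 5 of 9 tested fibroblast and precursor, 4 of 10 macrophage and 2 of 8 endothelial markers were lower in both the siAtf3 and the double comparison. Of 8 smooth muscle and pericyte markers 1 was higher and 1 lower in both, and of 12 adipocyte markers 1 was lower in double cells. Their part in the results was not tested. The same scramble libraries enter every one of these tests.

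The double cells also allow a test of whether the effects of the 2 siRNAs add up on the log2 scale. Double cells kept more Nfe2l1 RNA than siNfe2l1 cells: 23.4% against 15.2% of scramble with control treatment and 19.3% against 14.7% with cholesterol. For Atf3 they kept 57.3% against 37.8% in siAtf3 cells with control treatment and 12.8% against 10.3% with cholesterol. The part of these differences in silencing in the departures below was not tested. With cholesterol 1 of the 6 genes was called, where 5.09% of all genes were: Mt1 was 0.55 ± 0.15 higher than the sum of the single effects (adjusted p = 0.0326). Mt1 averaged 684 ± 75.5 CPM in siNfe2l1, 530 ± 66.9 CPM in siAtf3, 668 ± 52.4 CPM in double and 796 ± 63.6 CPM in scramble cholesterol cells. Double cells were thus nearer to siNfe2l1 cells than to siAtf3 cells. The call was lost in 8 of 16 fits without 1 library, namely library 1 of scramble, libraries 2, 3 and 4 of siNfe2l1, libraries 2, 3 and 4 of siAtf3 or library 3 of double cholesterol (0.50 to 0.55), and without libraries 3 and 4 of siNfe2l1 cholesterol together (0.48, adjusted p = 0.192). It was also lost with no filter (0.57, adjusted p = 0.0625). The other departures were 0.95 ± 0.41 for Mt2, 0.07 ± 0.08 for Mtf1, 0.27 ± 0.13 for Slc30a1, -0.35 ± 0.15 for Slc39a10 and -0.02 ± 0.11 for Slc39a14, none called. Without library 1 of siNfe2l1 cholesterol Slc30a1 and Slc39a10 were called (0.38 and -0.44), and without libraries 3 and 4 of that group they were at 0.04 and -0.15. With control treatment 0 of the 6 were called by edgeR, where 1.93% of all genes were, and the Mt1 value of 0.54 ± 0.15 had an adjusted p of 0.0638. Mt1 was the 1 gene at an unadjusted p under 0.05, DESeq2 called it and limma-voom called 0. It was also called with the replicate block (0.55), and without library 4 of siNfe2l1 control or library 1 of siAtf3 control (0.60 and 0.61). The others were 0.02 ± 0.52 for Mt2, -0.03 ± 0.08 for Mtf1, 0.03 ± 0.15 for Slc30a1, 0.01 ± 0.15 for Slc39a10 and 0.13 ± 0.11 for Slc39a14.

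Ordered by mean level, the 8 groups split into cholesterol groups on top and control groups below for 5 of the 6 genes, Slc39a10 being the exception. For Mt1 the order was scramble, siNfe2l1, double and siAtf3 with cholesterol, then the same 4 in the same order with control treatment. The highest mean was 3.61-fold the lowest, and one gap in the order had library ranges apart, that between siAtf3 cholesterol and scramble control cells. Slc30a1 spanned 2.93-fold, with its gap between double cholesterol and siAtf3 control cells. Mtf1 spanned 1.44-fold, with its gap between scramble cholesterol and siAtf3 control cells. Mt2 spanned 4.78-fold, with siNfe2l1 cholesterol highest and siAtf3 control lowest, and its gap lay between double and siAtf3 cholesterol cells. Slc39a14 spanned 1.97-fold, with its gap between siNfe2l1 and double control cells. Slc39a10 spanned 1.60-fold, from siNfe2l1 control at the top to scramble cholesterol, and no neighbouring pair of groups was apart. The share of all genes with such splits or gaps was not counted.

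The genes most alike in pattern were found by the root mean square difference between mean log2 CPM profiles over the 8 groups, each centred on its own mean, among 10895 protein-coding genes. The nearest to Mt1 were Trmt61a (0.122), Psat1 (0.124) and Rora (0.124), where the spread of the Mt1 profile itself was 0.64. The nearest to Slc30a1 were Fem1b (0.0260), Tab3 (0.0290) and Sun2 (0.0476), with a profile spread of 0.61. Mt2, with a spread of 0.84, had no gene closer than Icosl (0.230), followed by Ccbe1 (0.242) and Fam171b (0.250). For Mtf1 they were Fam222b (0.0268), Cdk17 (0.0283) and Utp20 (0.0296), for Slc39a10 Slc1a3 (0.0468), Wdfy3 (0.0689) and Irak4 (0.0694), and for Slc39a14 Plec (0.0470), Inhbb (0.0671) and Iqsec1 (0.0678). Among the 6 genes the closest pair was Mtf1 and Slc39a14 (0.214), followed by Mt1 and Slc30a1 (0.238), and the most distant was Mt2 and Slc39a10 (0.940). These are descriptions over 8 group means that share their libraries.

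Other transporters of both zinc families were measured as well. In scramble cells, of 5 tested of 9 other exporters of the Slc30a family 1 rose and 2 fell with cholesterol (median -0.07, against 0.00 over all genes), where 65.2% of all genes were called, 32.9% higher and 32.3% lower. Slc30a4, a transporter of vesicles, rose by 0.59 ± 0.06 (adjusted p = 9.24e-11), and Slc30a7, which loads the Golgi, fell at -0.69 ± 0.07 (adjusted p = 7.92e-11). Of 11 tested of 12 other importers of the Slc39a family 2 rose and 5 fell (median 0.03). Slc39a6, an importer of the plasma membrane, rose by 0.54 ± 0.05 (adjusted p = 4.96e-12), and Slc39a13, which releases zinc from intracellular vesicles, fell at -0.83 ± 0.06 (adjusted p = 6.95e-15). In the silenced cells the exporters counted 2 higher and 2 lower for siNfe2l1, and 2 higher and 1 lower for siAtf3 and for double cells. The importers counted 2 higher and 4 lower for siNfe2l1, and 2 higher and 3 lower for siAtf3 and for double cells. Of all genes, 60.1% were called in siNfe2l1, 58.1% in siAtf3 and 58.7% in double cells, with 31.1%, 29.4% and 29.8% higher. Mt3 and Mt4, the other metallothionein genes, had too few reads to test: Mt3 had 47 reads over all 32 libraries and Mt4 had 1.

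**Figure D5:**
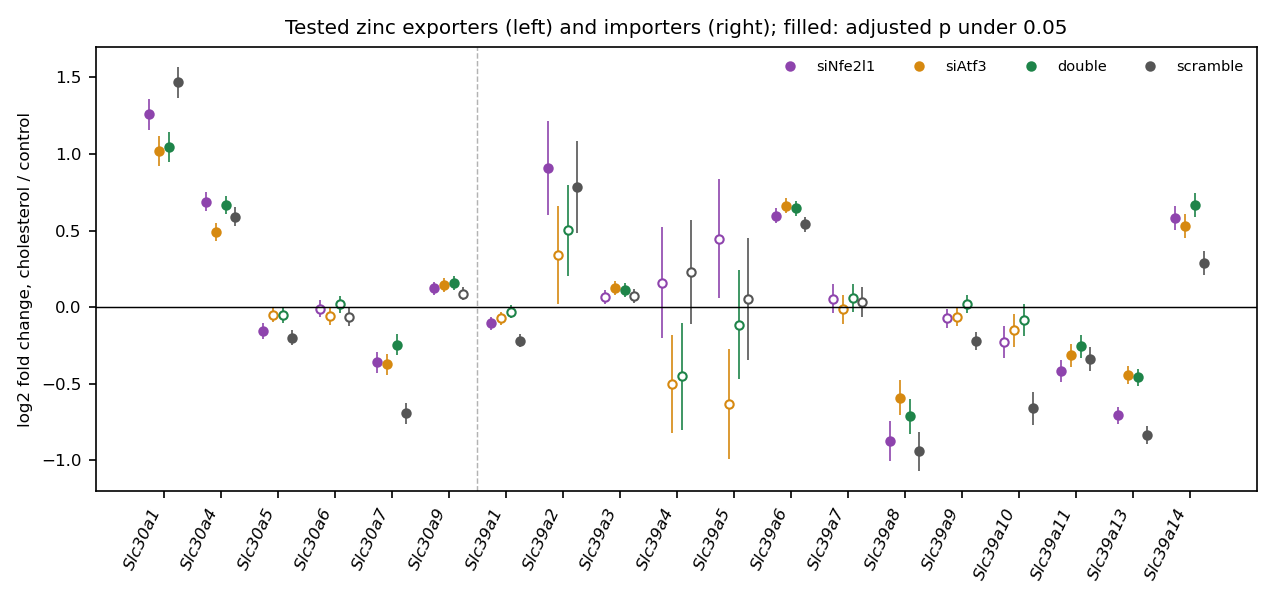
Log2 fold change of cholesterol over control treatment for every tested zinc exporter (left of the dashed line) and importer (right of it) in siNfe2l1, siAtf3, double and scramble cells; bars are SE and filled points have an adjusted p under 0.05. Slc30a1 has the highest values of the exporters, and Slc39a10 is called lower in scramble cells alone among the siRNA groups.

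Of 6 genes reported as MTF1 targets, 4 rose and 1 fell with cholesterol in scramble cells (median 0.92, against 0.00 over all genes), where 32.9% of all genes rose and 32.3% fell. Pgf, placental growth factor, averaged 104 ± 9.24 CPM with cholesterol and 9.90 ± 0.693 CPM with control (3.40 ± 0.10, adjusted p = 7.14e-24). Gclc, which encodes the catalytic subunit of glutathione synthesis, averaged 189 ± 9.50 CPM with cholesterol and 69.2 ± 4.30 CPM with control (1.45 ± 0.06, adjusted p = 7.51e-22). The count was 3 higher and 1 lower in siNfe2l1 cells, 4 higher and 1 lower in siAtf3 cells and 4 higher and 1 lower in double cells, where 31.1%, 29.4% and 29.8% of all genes were higher. The member that fell in each was Slc40a1, the cellular iron exporter. Gclc and Ndrg1 of this list are known targets of other stress pathways as well.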

How the data were processed

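Poly(A) RNA-seq libraries were read as raw counts per gene, deposited by the authors. Per the submitters' processing notes, fastp, HISAT2 2.0.5 and featureCounts 1.5.0-p3 were used with GRCm39. Counts were tested with edgeR 4.0.16 (R 4.3.3) in 1 robust quasi-likelihood fit of 8 group means over 32 libraries with 24 residual degrees of freedom, after TMM scaling (factors 0.886 to 1.10) and a filter on low counts (minimum 10, total 15). Benjamini-Hochberg adjustment ran over 16984 genes. Levels are CPM on TMM-scaled library sizes. The genes and lists were chosen with earlier results of these data known. The text names all 6 genes in every comparison, the 3 most alike genes each, and of each list the called genes with the 2 smallest adjusted p in scramble cells; others were named after their values were seen. The same code was checked on simulated counts for siAtf3 control against scramble control, with 50 changed genes at each size among 16636. It recovered 40% at 1.25-fold, 82% at 1.5-fold, 98% at 2-fold and 100% at 4-fold, with 3 false among 163 calls. Most changes of 1.25-fold were thus missed in that check, so a difference of this size that was not called is not shown to be absent. Replicates differed beyond sampling noise (chi-square per degree of freedom 2.67 to 42.2). Alternatives were DESeq2 1.42.0, limma 3.58.1 (voom), other scalings, no filter, a replicate block, the groups compared alone and libraries left out.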

Additional observations from a re-analysis of the deposited data

Results flagged for a closer look

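Outlying libraries were looked for in 48 groups of 4 libraries (6 genes in 8 groups), by the gap to the nearest library over the whole range against Dixon's 95% critical value. 2 stood apart, where chance gives about 1 in 20 groups. Mt2 in library 2 of scramble control had 1.73 CPM, against 0.900 to 0.964 CPM in the other 3. Slc39a10 in library 2 of double cholesterol had 23.0 CPM, against 20.2 to 20.5 CPM in the other 3.

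Of 30 interaction terms over the 6 genes, 6 were called by edgeR. Of all genes, 0.247% were called for siNfe2l1 by cholesterol, 15.3% for siAtf3 by cholesterol, 13.7% for double by cholesterol, and for both siRNAs 1.93% with control and 5.09% with cholesterol. The difference in cholesterol response from scramble cells was -0.45 for Slc30a1 and 0.51 for Slc39a10 with siAtf3. In double cells it was -0.42 for Slc30a1, 0.58 for Slc39a10 and 0.38 for Slc39a14. The departure of Mt1 from additive siRNA effects with cholesterol was 0.55.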

How the results depend on the processing

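Of 43 called differences among 102, 28 were called in every alternative, 15 were lost in at least 1 and 11 of these were lost by leaving out 1 library. No call changed sign except Slc39a14 in siAtf3 against scramble cholesterol cells, at 0.0024 with library totals. A further 73 values changed sign with no call on either side. Library totals moved the median of all genes to between -0.12 and 0.17, against -0.03 to 0.02. They moved the share of higher calls from 43.0 to 56.9% up to 66.2 to 76.0% in the silencing comparisons other than siNfe2l1 control, and to 38.9% from 50.4% for cholesterol in scramble cells. In the interactions it was 51.8% against 40.5% (siAtf3 by cholesterol), 60.0% against 47.5% (double by cholesterol), and for both siRNAs 46.8% against 70.7% with control and 21.3% against 54.9% with cholesterol. Library totals leave out the TMM factors, which differed by group. With cholesterol they were 0.905 to 0.963 in siNfe2l1, 1.02 to 1.05 in siAtf3, 0.997 to 1.02 in double and 0.886 to 0.929 in scramble libraries. With control treatment they were 0.984 to 0.998, 1.08 to 1.10, 1.05 to 1.06 and 0.981 to 0.995 in that order. Why the factors differed between groups was not tested.

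The number of the 6 genes called changed as follows, and these counts are not set against all genes in the same fit. In the main fit the called share of all genes was 26.8% for double against siNfe2l1 control. With cholesterol it was 19.9% for siNfe2l1 and 44.7% for double against scramble, and 36.6% for double against siNfe2l1. For interactions it is given above, and larger changes in the counts over all genes stand in the next paragraph. Double against siNfe2l1 control (2) gave 1 with library totals and 1 without the filter. siNfe2l1 against scramble cholesterol (3) gave 0 in the groups alone and 0 without libraries 3 and 4. Double against scramble cholesterol (1) gave 2 with DESeq2 size factors, 4 with library totals, 2 with the DESeq2 Wald test, 3 with the replicate block and 2 in the groups alone. Double against siNfe2l1 cholesterol (1), siAtf3 by cholesterol (2) and both siRNAs with cholesterol (1) gave 0 without the filter, and the last also 0 without libraries 3 and 4. Both siRNAs with control (0) gave 1 with the Wald test and 1 with the block. Leaving out 1 library gave 5 to 6 for cholesterol in siNfe2l1, 4 to 5 in siAtf3, 5 to 5 in double and 6 to 6 in scramble cells. With control treatment it gave 0 to 0 for siNfe2l1, 3 to 3 for siAtf3, 2 to 3 for double against scramble and 1 to 3 for double against siNfe2l1. With cholesterol it gave 1 to 4 for siNfe2l1, 3 to 4 for siAtf3, 1 to 4 for double against scramble and 0 to 1 for double against siNfe2l1. For interactions it gave 0 to 1 (siNfe2l1), 0 to 2 (siAtf3), 1 to 3 (double), and for both siRNAs 0 to 1 with control and 0 to 3 with cholesterol. The order of the 8 groups was the same for 5 of the 6 genes under DESeq2 size factors, the one alternative run for it.

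Over all genes, siNfe2l1 against scramble cholesterol called 3382, against 645 in the groups alone and 1206 without libraries 3 and 4. The siNfe2l1 interaction called 42, against 72 without the filter, 344 by Wald, 143 with the block, 2 in the groups alone and 5 without libraries 3 and 4. Both siRNAs with control called 328, against 557 by Wald and 757 in the groups alone. Both with cholesterol called 865, against 1337, 259 and 312 without libraries 3 and 4. Replicate numbers were not treated as pairs in the main fit: 1 of 28 pairs of groups had every same-number correlation over 0.1 (median 0.03). That count pools control and cholesterol groups, and pairing among the cholesterol groups alone was not tested. In each of these, library 1 had the highest value of the first principal component (40.5 in siNfe2l1, 35.2 in siAtf3, 33.7 in double and 43.6 in scramble cells). Mt2 had 14 to 123 reads a library, and such low counts limit the precision of its values. Whether reads in the bases shared with Gm45774 were left out of its count was not tested.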

Other observations

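Of 11 tested of 12 iron-handling genes, 4 rose and 5 fell with cholesterol in scramble cells, where 32.9% of all tested genes rose and 32.3% fell. Slc11a2, an iron importer, rose by 0.57 ± 0.05 (edgeR adjusted p = 2.11e-11), and Ftl1, the ferritin light chain, rose by 0.68 ± 0.08 (adjusted p = 1.01e-08). Of 10 tested of 11 copper-handling genes, 4 rose and 3 fell in the same comparison. Slc31a2, a copper transporter, fell at -0.42 ± 0.06 (adjusted p = 5.66e-07), and Sco1, a copper chaperone of mitochondria, rose by 0.36 ± 0.07 (adjusted p = 1.43e-05).

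Genes of IL-6 signalling and the acute phase response were listed because Slc39a14 is an IL-6 target in mouse liver. Of 14 tested of 16, 8 rose and 2 fell in that comparison, with Il6 at 2.43 ± 0.22 (edgeR adjusted p = 2.36e-10) and Il6ra at -0.63 ± 0.07 (adjusted p = 3.83e-10). Against scramble, 0 were higher and 12 lower in siAtf3 cells with cholesterol, where 50.4% of all genes were called and 27.4% were lower, and 0 were higher and 8 lower with control treatment, where 36.3% were called and 18.2% were lower. In double cells 0 were higher and 10 lower with cholesterol, where 44.7% were called and 23.9% were lower, and 0 were higher and 8 lower with control treatment, where 27.2% were called and 14.3% were lower. In siNfe2l1 control cells 0 of 14 were called against scramble, where 5.99% of all genes were. With cholesterol 6 rose and 2 fell in siNfe2l1, 8 rose and 3 fell in siAtf3 and 7 rose and 1 fell in double cells. Of all genes 31.1%, 29.4% and 29.8% rose there. The list's median response was 0.17, 0.32 and 0.24 in these cells and 0.32 in scramble cells. For Slc39a14 the rise was 0.58, 0.53 and 0.67, and 0.29 in scramble cells. Whether these genes bear on Slc39a14 was not tested.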
